A study of Drosophila melanogaster with 3 samples.

Results

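The nuclear genes for subunits of the oxidative phosphorylation complexes were taken from the Ensembl BDGP6 annotation of Drosophila melanogaster as the protein-coding genes whose name starts with ND-, UQCR-, COX, Sdh or ATPsyn. This gave 88 of 13968 protein-coding genes. They fell into 63 main genes, 24 duplicates whose name ends in L or in L and a digit, and Sdhaf3, which is an assembly factor of complex II rather than a subunit. Subunit genes with other names, such as blw and levy, are outside the rule and are described apart.

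The data are chromatin immunoprecipitation sequencing (ChIP-seq) of whole pupae of the snoo-MiMIC strain. These flies make a Snoo-eGFP fusion protein, since an exon for eGFP sits within an intron of the endogenous snoo gene, and an antibody against GFP was used on sonicated chromatin. The labels give 1 group with 3 biological replicates, numbered 3, 5 and 6, males and females pooled, and an unknown age. No untagged or input library was among the samples, so no comparison of conditions was possible, and strong binding in few cells and weak binding in many cells of a pupa cannot be told apart.

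Oxidative phosphorylation passes electrons from NADH and succinate through complexes I to IV of the inner mitochondrial membrane and uses the resulting proton gradient to make ATP in complex V. Complex I (ND- genes) oxidises NADH, complex II (Sdh) oxidises succinate, complex III (UQCR-) passes electrons to cytochrome c, complex IV (COX) reduces oxygen, and complex V (ATPsyn) is the ATP synthase. Most subunits are encoded in the nucleus, and many of the -L duplicates in flies are known for expression biased to the testis. Snoo belongs in flies to the Ski and Sno proteins, transcriptional cofactors best known from TGF-beta signalling.

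A gene was called bound when a summit of the authors' list of 6633 reproducible peaks lay within 1000 bp of any of its annotated transcript starts. The authors kept peaks in that list by their irreproducible discovery rate (IDR), and a peak's strength is the signal value that the authors' caller gave it, which ran from 128 to 4785 with a median of 222. Main genes were bound in 27 of 63 cases (42.9%, exact 95% interval 30.46 to 55.95%), against 25.2% of all protein-coding genes. Duplicates were bound in 1 of 24 cases (4.17%, interval 0.105 to 21.1%). Sdhaf3 was not bound, so 28 of the 88 genes (31.8%, interval 22.3 to 42.6%) were bound in all. That interval holds the 25.2% of all genes. Intervals cover only counting error over genes, and neighbouring genes are not independent.

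Several of the strongest peaks at these genes are shown by the bases around their summits, because they locate the binding that the counts rest on. Each line gives 61 bases of the RefSeq Release 6 (dm6) genome on the strand of the gene, with the summit base in capitals. The summits of ND-ASHI, ND-42, ND-75 and ND-51 lay before the start of the gene, that of ATPsynE lay 816 bp after its start, and that of COX7AL2, the only bound duplicate, lay in an intron.
ND-ASHI: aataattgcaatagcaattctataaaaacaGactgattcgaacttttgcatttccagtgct (chrX:6679318-6679378, minus strand)
ND-42: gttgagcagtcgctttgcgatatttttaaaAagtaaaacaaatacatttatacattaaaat (chr3R:22027489-22027549, plus strand)
ND-75: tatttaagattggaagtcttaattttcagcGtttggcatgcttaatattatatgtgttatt (chrX:8252428-8252488, minus strand)
ND-51: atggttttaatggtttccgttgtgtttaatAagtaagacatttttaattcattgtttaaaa (chr2L:6062821-6062881, minus strand)
ATPsynE: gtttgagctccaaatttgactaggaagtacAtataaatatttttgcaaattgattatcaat (chr3R:14327854-14327914, plus strand)
COX7AL2: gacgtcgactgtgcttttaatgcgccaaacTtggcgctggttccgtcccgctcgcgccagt (chr2L:2193585-2193645, minus strand)

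Promoters of 14 of the 63 main genes held GGTCACACT, known as core promoter motif 1 of flies. The motif was searched on both strands from 250 bp before to 50 bp after the 5′ end of each gene. It was present at 7 of 27 bound main genes (25.9%) and 7 of 36 unbound main genes (19.4%). Within 100 bp on each side of the 5′ end it was at 5 of 27 bound (18.5%) and 7 of 36 unbound main genes (19.4%), so the order of the shares depended on the window. The share was 22.2% over all 63 main genes, 4.17% of duplicates and 6.04% of all protein-coding genes. Of the 14 matches, 11 are printed, those at bound genes before those at unbound genes, with the motif in capitals, in 30 bases of the dm6 genome each on the strand named. The others were at ND-MWFE (bound), ND-B14 and UQCR-6.4 (not bound).
COX5A: atttaattgcGGTCACACTgcatcttcaac (bound, chr3R:11819312-11819341, minus strand)
COX5B: actttaccgcGGTCACACTgatccatagct (bound, chr2L:6557802-6557831, plus strand)
COX7B: acaacacaacGGTCACACTgttcaacacaa (bound, chr3L:17425476-17425505, plus strand)
ND-B17: ttaagagtgcGGTCACACTggcggcaacag (bound, chr2L:15751074-15751103, minus strand)
ATPsynC: ctactgttatGGTCACACTgcgcctattgt (bound, chr3R:31219777-31219806, minus strand)
ATPsynD: ccctcgggtcGGTCACACTatcagctgcct (bound, chr3R:19094883-19094912, minus strand)
COX4: ttcgagatgtGGTCACACTtctctgcatga (not bound, chr2L:19958641-19958670, plus strand)
ND-13A: accgatcagcGGTCACACTggttatttaaa (not bound, chr2L:5100262-5100291, plus strand)
ND-18: ccgctcgcctGGTCACACTggcactggcga (not bound, chrX:19492408-19492437, plus strand)
ND-ACP: ttgcgcatacGGTCACACTgctaccttgct (not bound, chr3L:1329972-1330001, plus strand)
ND-PDSW: ggcacactgcGGTCACACTggcttcgctca (not bound, chr2L:3466068-3466097, minus strand)
Main genes with the motif were bound in 7 of 14 cases (50%) and main genes without it in 20 of 49 (40.8%). Over all protein-coding genes the shares were 38.3% with it and 24.4% without it.

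The complexes differed in the share of main genes bound, although most hold few genes. Complex II stood at 4 of 4 genes (interval 39.8 to 100%), complex V at 7 of 11 (63.6%, interval 30.8 to 89.1%) and complex IV at 5 of 8 (62.5%, interval 24.5 to 91.5%). Complex I stood at 10 of 34 (29.4%, interval 15.1 to 47.5%) and complex III at 1 of 6 (16.7%, interval 0.421 to 64.1%). The intervals of all 5 complexes overlap, and those of complexes II and V lie above the 25.2% of all genes. Duplicates were bound in 0 of 6 cases in complex I, 0 of 3 in complexes II and III each, 1 of 8 in complex IV and 0 of 4 in complex V.

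**Figure D1:**
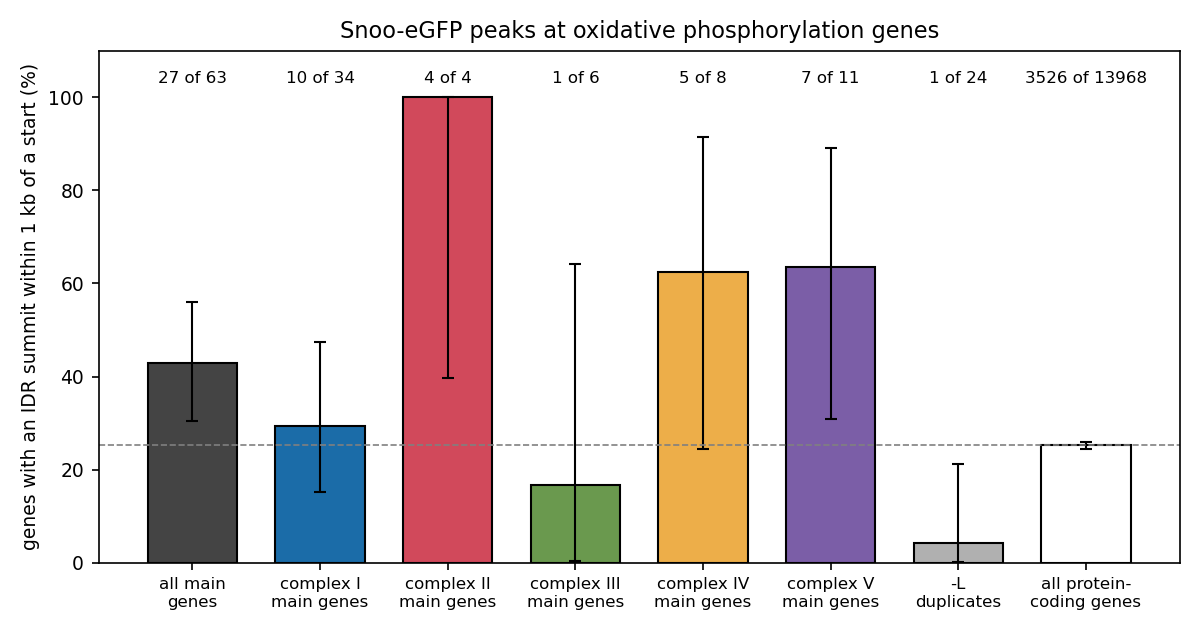
Share of genes (%) with a peak summit within 1 kb of a start, by complex, for the -L duplicates and for all protein-coding genes. Bars are shares, error bars exact 95% intervals over genes, counts stand above the bars and the dashed line marks the 25.2% of all genes. Main genes as a whole and complexes II and V have intervals above the line, while the interval of the duplicates lies below it.

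In each replicate on its own, the 6633 strongest regions were used so that the lists had the same length. They reached 21, 24 and 26 main genes in replicates 3, 5 and 6, which is 33.3, 38.1 and 41.3% of 63. The background was 25.4, 26.2 and 26.5% of all genes. All 3 replicates thus lay above the background, with a mean of 37.6 ± 3.99% for main genes and 26.1 ± 0.571% for all genes (SD, n = 3). The duplicate count was 1 in each replicate, COX7AL2 every time. By complex, the means were 29.4 ± 5.09% in complex I, 50 ± 0% in complex II with 2 of 4 genes in each replicate, 11.1 ± 9.62% in complex III, 62.5 ± 12.5% in complex IV and 54.5 ± 15.7% in complex V (SD, n = 3 each).

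The count of bound main genes was smaller where peaks had to recur. Summits shared by both other replicates, with 1 replicate left out, reached 17 main genes without replicate 3, 17 without replicate 5 and 18 without replicate 6. These are 27, 27 and 28.6% of main genes, against 19.7, 18.1 and 19.1% of all genes, and the lists themselves held only 4683, 4349 and 4457 summits. Complex II fell to 0 genes without replicate 3 and 1 gene without replicate 5 or 6, and complex III to 0 in each case. The loss of SdhA without replicate 3 came from the 1 kb limit, not from a missing peak. Its regions ranked 2342 and 2406 in replicates 5 and 6, but the summit in replicate 5 lay more than 1 kb from the start. Peaks of the IDR list found in all 3 replicates marked 16 main genes (25.4%), against 16.1% of all genes.

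The strength of the peaks set a limit on this difference. With only the 3317 strongest peaks, 9 of 63 main genes (14.3%) were bound, against 14.6% of all genes. Bound main genes had a median signal of 192 and a range of 128 to 971, whereas all 3526 bound protein-coding genes had a median of 252. Among bound genes, 9 of 27 main genes (33.3%) were in the stronger part of the list, against 57.8% of all bound genes, and 3 of 27 were among the 1000 strongest peaks, against 21.4%. The excess of bound main genes over the background was thus present with the whole list and absent with its strongest peaks alone.

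The 3 main genes among the 1000 strongest peaks were ND-ASHI, ND-MWFE and ATPsynE. The median signal was highest in complex I at 308, and stood at 201 in complex IV, 169 in complex V, 155 in complex II and 128 at the single bound gene of complex III.

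**Figure D2:**
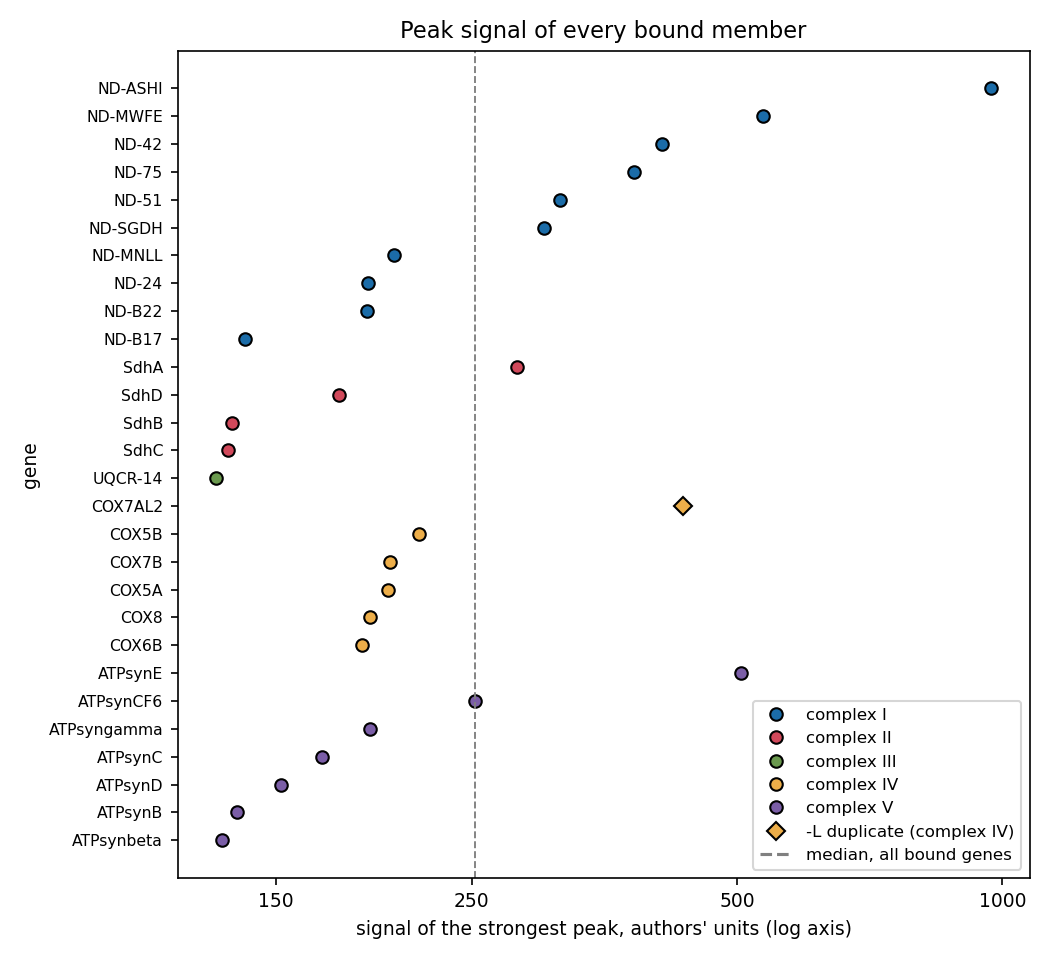
Signal of the strongest peak at each of the 28 bound genes, in the authors' units on a log axis, by complex. Each point is 1 gene and the dashed line marks the median of 252 over all bound protein-coding genes. Complex I genes from ND-ASHI to ND-SGDH, SdhA, COX7AL2 and ATPsynE lie to the right of the line.

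Complex I holds the 3 bound core subunits ND-75, ND-51 and ND-24, which in mammals form the module that takes electrons from NADH. The other 4 nuclear core subunits of the list, ND-49, ND-30, ND-20 and ND-23, sit in the arm that reduces ubiquinone, and in the IDR list 0 of these 4 were bound. Among the 6633 strongest regions of replicate 6, however, ND-49 was reached at rank 3914 and ND-23 at rank 6378. Core subunits were thus bound in 3 of 7 cases (42.9%, interval 9.9 to 81.6%), and accessory subunits in 7 of 27 (25.9%, interval 11.1 to 46.3%), against 25.2% of all protein-coding genes. The accessory share was thus near that background, and both intervals hold it. In replicates 3, 5 and 6 the core counts were 2, 3 and 5 of 7.

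ND-ASHI, an accessory subunit on the X chromosome (chrX:6677262-6679118, minus strand), had the strongest peak of all these genes. Its signal was 971, rank 249 of 6633, in a peak at chrX:6679138-6679555. The regions at this summit had signals of 208, 259 and 487 in replicates 3, 5 and 6. Values of different lists are not on a common scale, since the signal at rank 6633 was 38.9, 44.4 and 58.1 in the same order, so replicates are compared by rank. The ranks were 313, 357 and 233, so the peak was strong in every replicate. The summit lay 230 bp before the start of ND-ASHI and inside Fum1, the gene for fumarase of the tricarboxylic acid cycle, whose start on the opposite strand was 292 bp away.

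ND-MWFE, another accessory subunit, had a signal of 535, with 88.8, 142 and 294 in replicates 3, 5 and 6. The summit lay 181 bp before its start and 40 bp from the start of TppII, a peptidase gene on the opposite strand. ND-42, also an accessory subunit (chr3R:22027709-22029393), had a signal of 411, with 93.4, 142 and 190 in replicates 3, 5 and 6. Both genes ranked high in every replicate, between 695 and 1847 for ND-MWFE and between 1134 and 1698 for ND-42. The summit of ND-42 lay 190 bp before its start and 39 bp from the start of Cchl, which encodes a lyase that attaches heme to cytochrome c. A second, weaker summit with a signal of 139 lay 28 bp after the start of ND-42.

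The remaining bound complex I genes had lower signals. ND-75 had 382 at a summit 771 bp before its start, where the start of CG1632 was nearer. ND-51 had 315 at 94 bp, and ND-SGDH had 302 at 99 bp with a further summit of 227 at 851 bp. ND-MNLL had 204, ND-24 had 191, ND-B22 had 190.5 and ND-B17 had 138. Of these, ND-B17 was among the 6633 strongest regions of replicate 6 alone, and ND-24 was not among those of replicate 3.

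All 4 subunits of complex II were bound, and the signals of SdhB and SdhC were near the lower end. SdhA, the flavoprotein that oxidises succinate, had a signal of 282 at a summit 878 bp before its start and 77 bp from the start of cer, with 57.0, 89.7 and 133 in replicates 3, 5 and 6. SdhD, a membrane anchor, had 177 at a summit in its 5′ UTR, 15 bp after the start, with 37.2, 44.4 and 76.2. SdhB, the iron-sulfur subunit, had 134 in its 5′ UTR, 27 bp after the start, with 25.03, 52.9 and 46.7 in the same replicates. The summit of SdhA was among the strongest 6633 regions in all 3 replicates, whereas those of SdhD and SdhB were in 1 replicate each. SdhC, the other membrane anchor, had 132 at a summit 359 bp before its start, which was 39 bp from the start of Tctp.

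The only bound gene of complex III was UQCR-14, at the very end of the list. Its signal was 128, rank 6601 of 6633, at a summit 905 bp before the start and inside eas, with 33.4, 49.9 and 43.3 in replicates 3, 5 and 6. It was among the 6633 strongest regions in replicate 5 alone. UQCR-11, not bound in the IDR list, was reached in replicate 6 alone, at rank 4329. It had no region of the pooled candidate list within 1 kb. UQCR-C1 and UQCR-C2, the large core proteins of the complex, were not bound, but their regions in the pooled candidate list came shortly after the IDR list ended, at ranks 7277 and 7509.

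Complex IV had 5 bound main genes within a narrow range of 188 to 218, none in the stronger part of the list. COX5B (chr2L:6557800-6559308) had 218 at a summit 285 bp before its start and 13 bp from that of IFT52, with 43.0, 52.1 and 123 in replicates 3, 5 and 6. COX7B had 202 at 152 bp before its start, with 56.8, 52.3 and 91.5. COX5A had 201 in an intron, 54 bp before 1 of its starts, with 48.4, 42.9 and 90.7. COX5B and COX7B were among the 6633 strongest regions of all 3 replicates, and COX5A was not among those of replicate 5. COX8 had 192 and COX6B had 188, and both were found in all 3 replicates. All 5 encode small subunits that surround the catalytic core, which is itself encoded in the mitochondrial genome.

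Complex V combined a strong peak with several weak ones. ATPsynE, a membrane subunit (chr3R:14326947-14327735), had 505 at a summit 816 bp after its start, with 125, 149 and 213 in replicates 3, 5 and 6. That summit lay past the end of the gene and nearer to the start of spn-B, a DNA repair gene, but a second summit of 230 lay 18 bp before the start of ATPsynE. ATPsynCF6, in the peripheral stalk, had 252 at 969 bp, inside Sec13, with 67.2, 64.6 and 109, and a second summit of 141 at 15 bp. Both genes thus kept a weaker summit at their own start.

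ATPsyngamma, the central stalk, had 192 at a summit in its 5′ UTR, with 29.3, 45.8 and 119 in replicates 3, 5 and 6, and was outside the 6633 strongest regions of replicate 3. ATPsynC, the rotor ring, had 169, ATPsynD had 152 and ATPsynB had 136. ATPsynbeta, which holds the catalytic sites, had 130 at 2 bp after 1 of its starts on chromosome 4. It had 69.7 and 48.6 in replicates 3 and 5, and replicate 6 had no region at that summit. The peripheral stalk subunit ATPsynO and the membrane subunits ATPsynF and ATPsynG were not bound.

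**Figure D3:**
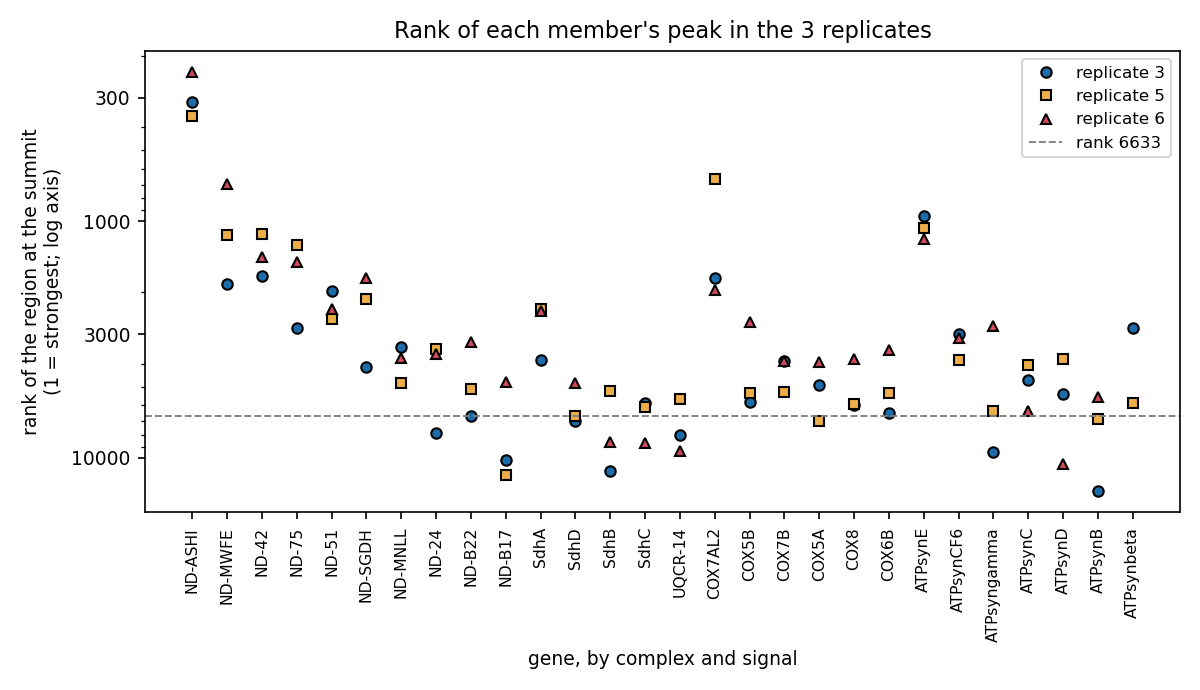
Rank of the region at each bound gene's strongest summit in replicates 3, 5 and 6, on a log axis with the strongest at the top; genes are ordered by complex and signal. The dashed line marks rank 6633. ND-ASHI ranks between 233 and 357 in all 3 replicates, while ND-B17, SdhB and UQCR-14 lie above the line in 1 replicate each, and ATPsynbeta has no point for replicate 6.

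Over the 27 bound main genes, the strongest summit recurred among the 6633 strongest regions in 3 replicates for 16 genes, in 2 for 6 and in 1 for 5. The 4 main genes ATPsynCF6, ATPsynE, ND-42 and ND-51 were bound under each of the alternative windows, peak sets and assignment rules tried. This was not always by the same summit. ATPsynCF6 was in the stronger part of the list only by its summit at 969 bp (rank 2796). Within 500 bp it had only that at 15 bp (rank 5957). The ND-42 summit of rank 1378 was nearer to the start of Cchl, and that of rank 6016 was outside the stronger part. ATPsynE had within 500 bp only its weaker summit, at 18 bp (rank 3168). ND-51 had no second summit. A set of 15 was bound in the IDR list, in its peaks found in all 3 replicates and without each replicate in turn. It held ND-42, ND-51, ND-75, ND-ASHI, ND-B22, ND-MNLL, ND-MWFE and ND-SGDH of complex I, COX5B, COX6B, COX7B and COX8 of complex IV, and ATPsynC, ATPsynCF6 and ATPsynE of complex V.

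Most summits lay before the nearest own start, and close to it. The strongest summit was upstream of that start at 21 bound main genes and downstream at 6. At ND-24, ND-B22, COX5A and ATPsyngamma the upstream summit lay inside the gene, in an intron or the 5′ UTR. The median distance was 117 bp, against 173 bp over all bound genes, and 14 of 27 (51.9%) were within 150 bp, against 44.1%. With the window at 500 bp, 23 main genes were bound (36.5%), against 21.9% of all genes. At 2000 bp the count was 32 (50.8%, against 30.7%), and at 5000 bp it was 43 (68.3%, against 45.2%). Using only the 5′ end of each gene left 27 (42.9%), against 23.2% of all genes. Asking that the peak interval overlap a start gave 18 (28.6%), against 14.3%.

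**Figure D4:**
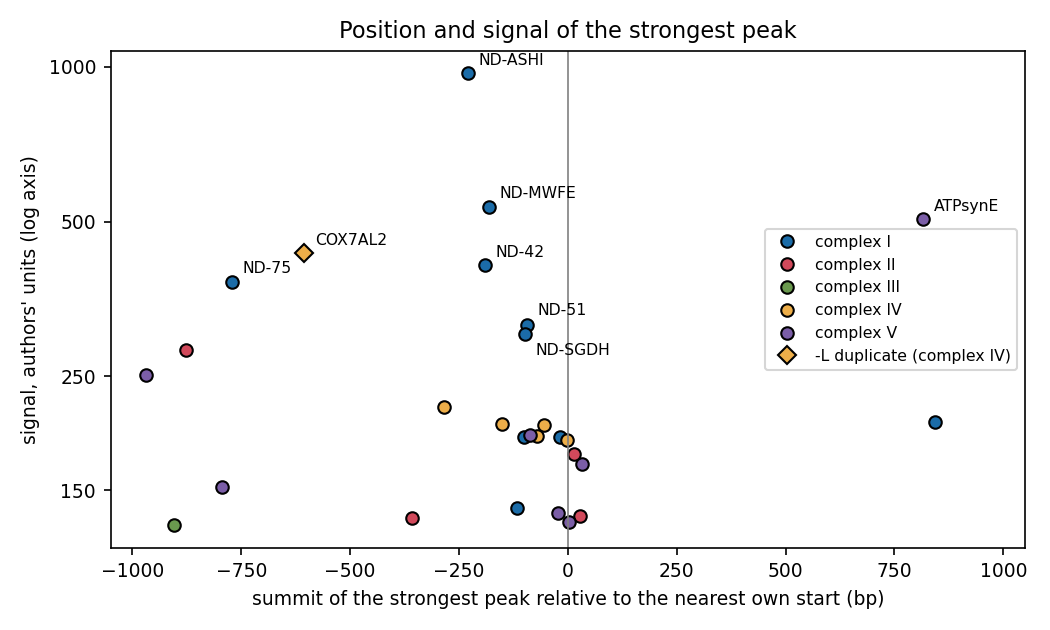
Signal of the strongest peak in the authors' units (log axis) against the distance of its summit from the nearest own start in bp, negative before the start. Each point is 1 bound gene, coloured by complex, and the diamond is the duplicate COX7AL2. Of the 28 points, 14 lie within 150 bp of the start, and ATPsynE stands alone at 816 bp after it among the strong peaks.

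Many summits were shared with a neighbouring gene. Another protein-coding start lay within 1 kb of the strongest summit at 20 of 27 bound main genes (74.1%), against 56.7% of all bound genes, and at 16 of them the nearest such start was on the opposite strand. The own start was the nearest at 17 (63%), against 71.9%. When each summit counted only for the gene with the nearest start, 20 main genes stayed bound (31.7%), against 19% of all genes.

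Divergent pairs, with a protein-coding start on the opposite strand at most 1 kb before the 5′ end, were common. They made up 37 of 63 main genes (58.7%) and 4 of 24 duplicates (16.7%), against 35.2% of all protein-coding genes. The share was higher still at mitochondrial ribosomal protein genes, 58 of 73 (79.5%). Main genes in such pairs were bound in 19 of 37 cases (51.4%) and main genes outside them in 8 of 26 (30.8%). Over all genes the shares were 39.7 and 17.4%. Main genes were thus bound more often than all genes in both arrangements, and the part of gene arrangement in the difference was not tested. Partners with a mitochondrial product were Fum1 for ND-ASHI, Cchl for ND-42 and mRpL55, a mitochondrial ribosomal protein gene, for ATPsynD, all at bound genes, and kdn, the gene for citrate synthase, for the unbound ND-B16.6.

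**Figure D5:**
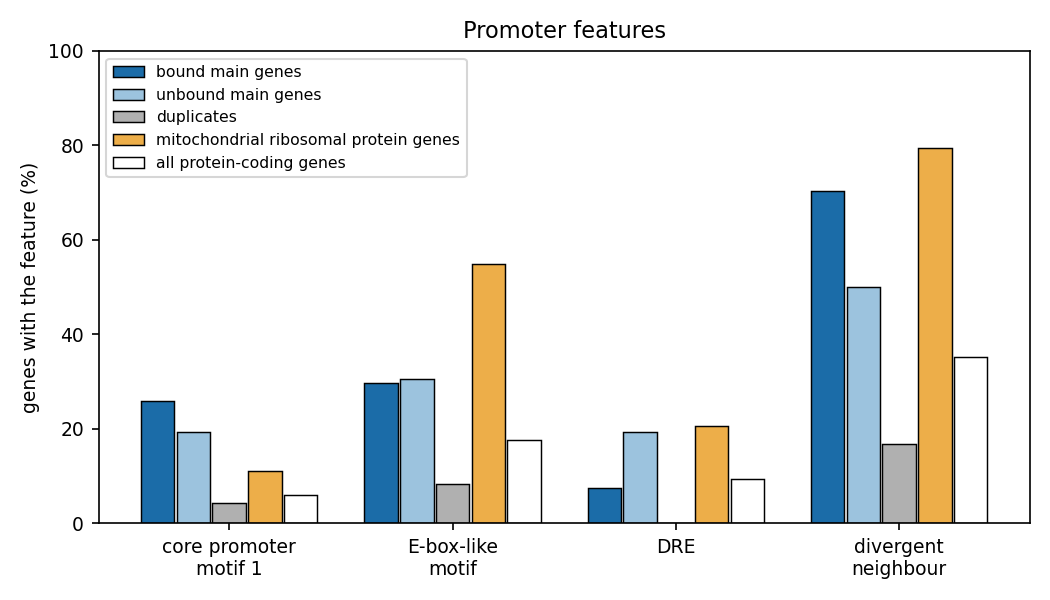
Share of genes (%) with core promoter motif 1, an E-box-like motif or the DRE in the promoter, and with a divergent neighbour within 1 kb, for bound and unbound main genes, duplicates, mitochondrial ribosomal protein genes and all protein-coding genes. Bars are shares without error bars. A divergent neighbour was found at 70.4% of bound and 50% of unbound main genes, against 35.2% of all genes.

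The main genes were set beside the mitochondrial ribosomal protein genes, another set of nuclear genes for a mitochondrial machine. The share bound was 42.9% of the 63 main genes, against 26 of 73 ribosomal protein genes (35.6%, interval 24.8 to 47.7%), and the intervals overlap. Over the 3 replicates the mean share was 37.6 ± 3.99% of main genes, against 38.4 ± 4.11% of ribosomal protein genes (SD, n = 3 each). The replicates thus gave no order between these sets. With each summit counted for the nearest start only, 20 of 63 main genes were bound (31.7%, interval 20.6 to 44.7%), against 19% of all genes. Ribosomal protein genes stood at 9 of 73 (12.3%, interval 5.8 to 22.1%). This rule gives a shared summit to the gene with the nearer start. Divergent neighbours stood at 58.7% of main genes and 79.5% of ribosomal protein genes, and the part of arrangement in this gap was not tested. Promoters held CAGCTG, an E-box-like motif, at 30.2% of main genes, against 54.8% of ribosomal protein genes and 17.6% of all genes. Bound and unbound main genes had it in 29.6 and 30.6% of cases. The DNA replication-related element TATCGATA was present at 7.41% of bound and 19.4% of unbound main genes, against 9.36% of all genes. Within 100 bp on each side it was at 7.41% of bound and 11.1% of unbound main genes, against 7.83% of all genes. All motifs were searched on both strands. The rarer ones were at 3.17% or fewer of main promoters in the window from 250 bp before to 50 bp after the 5′ end. GAGAGA, the element of the GAGA factor, was at 2 of 63, against 12.3% of all promoters. Within 100 bp on each side it was at 4 of 63 (6.35%), against 8.35%. All 4 were bound, against 364 of the 1167 protein-coding genes with it in that narrower window. A relation of this motif to binding was not tested. The motif GTCTAG was at 2 of 63, against 5.08%, while GCATGC was at 2 of 63, against 4.83%. The E-box CACGTG was at 2 of 63, against 4.2%, and TTACATAA at 2 of 63, against 2.15%. Matches to TTACGTAA were at 0 of 63, against 0.451%, and the ETS-type site CCGGAAGT was at 0 of 63, against 0.379%.

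A motif spelled TTACATAA or, as a palindrome, TTACGTAA is known from nuclear respiratory genes of flies. It lies mostly after the start, and the window above covers only 50 bp of that side. Within 100 bp on each side of the 5′ end, either spelling was present at 8 of 63 main genes (12.7%), 7 of 73 mitochondrial ribosomal protein genes (9.59%), 0 of 24 duplicates and 1.28% of all protein-coding genes. It was present at 2 of 27 bound main genes and 6 of 36 unbound ones. The matches at 7 of the 8 genes are shown for their shared core, in capitals, in 30 bases of the dm6 genome, and the other was at ND-B14.7 (not bound).
ND-MNLL: ttttttttgaaTTACATAAaatattgctac (bound, chrX:7893866-7893895, minus strand)
ATPsyngamma: ataattatgagTTACATAAattcaaattaa (bound, chr3R:29749055-29749084, minus strand)
ND-18: tgttccaaattTTACGTAAttcgtattttg (not bound, chrX:19492468-19492497, plus strand)
ND-20: ataagttgaagTTACATAAataggtattaa (not bound, chrX:15986731-15986760, minus strand)
ND-30: acattttagcaTTACATAAattgtcaaaaa (not bound, chr3L:3159512-3159541, minus strand)
ND-49: ttactaggaacTTACATAAtggttctgcta (not bound, chr4:571520-571549, plus strand)
ND-ACP: ctccagcacttTTACATAAtcttgaaaact (not bound, chr3L:1330014-1330043, plus strand)
Of these, ND-20, ND-30 and ND-49 are core subunits of the ubiquinone-reducing arm of complex I.

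Each duplicate was paired with its main gene, which for COX6AL, COX6AL2, COX6CL and ATPsynepsilonL is levy, cype or sun, outside the naming rule. In 13 of 24 pairs the main gene was bound and the duplicate was not, in 1 the reverse held, in 10 neither was bound and in 0 both were. With only 1 of 24 duplicates bound, these pair counts largely follow from that count. The pairs are not independent, since ND-51, levy and COX7A each stand in more than 1 of them. The main genes with a duplicate were bound in 11 of 21 cases, against 25.2% of all protein-coding genes. COX7AL2 (chr2L:2192525-2197912) made the exception, while COX7A was unbound with the nearest summit 6693 bp away. COX7AL2 had a signal of 434, rank 1260, at a summit 605 bp before 1 of its 3 starts, in a peak at chr2L:2193467-2193766, and a second summit of 156 at 839 bp after another start. Its values were 92.3, 192 and 153 in replicates 3, 5 and 6, with ranks of 1730, 665 and 1948. No other protein-coding start lay within 1 kb of that summit.

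The pairs were mostly far apart, 17 of 24 on different chromosome arms. COX5B and COX5BL stand 1631 bp apart, and the peak before COX5B left COX5BL unbound with its nearest summit at 1916 bp. The candidate list of the pooled replicates, which includes background by design and holds 30000 regions, had a region within 1 kb of 53 main genes (84.1%) and 5 duplicates (20.8%), against 50% of all genes. Main genes had a median length of 1178 bp, against 744 bp for duplicates and 2164.5 bp for all genes, and 32 main genes had several starts, against 3 duplicates. The part of length and number of starts in the difference was not tested.

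The 36 unbound main genes had their nearest summit at a median of 6490 bp, and 16 of them within 5000 bp. Closest to the 1 kb limit from outside were UQCR-C2 at 1170 bp, ND-39 at 1548 bp, ATPsyndelta at 1688 bp, ND-B12 at 1729 bp and COX7C at 1940 bp. Closest from inside, by the summit nearest to a start, were UQCR-14 at 905 bp, SdhA at 878 bp, ATPsynD at 794 bp and ND-75 at 771 bp. A region of the pooled candidate list lay within 1 kb of 26 of the unbound genes.

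In complex I the nearest summits of unbound genes were at 2620 bp for ND-B14.7, 3015 bp for ND-13B, 3386 bp for ND-B16.6, 3591 bp for ND-B14, 3712 bp for ND-B8, 3763 bp for ND-15, 3999 bp for ND-18, 4115 bp for ND-B15 and 4805 bp for ND-ACP. They were at 5627 bp for ND-B18, 6287 bp for ND-PDSW, 7265 bp for ND-B14.5B, 7843 bp for ND-13A, 9343 bp for ND-23, 11301 bp for ND-30, 20868 bp for ND-19, 26305 bp for ND-B14.5A, 72900 bp for ND-49, 87060 bp for ND-B17.2, 96506 bp for ND-20, 243853 bp for ND-MLRQ and 1880781 bp for ND-AGGG. The core subunits ND-49 and ND-20 were thus among those farthest from a summit of the IDR list. The pooled candidate list, which includes background, had regions within 1 kb of both, at ranks 8772 and 29600. Replicate 6 had such regions at ranks 3914 and 7558.

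In complex III the distances were 4051 bp for UQCR-C1, 4162 bp for UQCR-6.4, 10556 bp for UQCR-Q and 2025236 bp for UQCR-11. In complex IV they were 6693 bp for COX7A and 17190 bp for COX4, and in complex V 7233 bp for ATPsynF, 8894 bp for ATPsynG and 9794 bp for ATPsynO. The 23 unbound duplicates had a median of 14678 bp, from 1916 to 135285 bp.

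By chromosome arm, 9 of 13 main genes on 3R were bound (69.2%, interval 38.6 to 90.9%), against 26.4% of all genes there. The counts were 6 of 12 on X (50%), against 24.2% of all genes there, and 4 of 12 on 2L (33.3%), against 23.6%. On 3L 4 of 13 were bound (30.8%, against 26%), on 2R 3 of 11 (27.3%, against 25.7%) and on 4 1 of 2, against 26.2%. The shares on 2R and 3L were thus near the background. The difference between arms was not tested.

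Respiratory genes outside the naming rule were counted in the same way. Among subunit genes with other names and the cytochromes c, 5 of 9 were bound. Strongest were Cyt-c-d, the cytochrome c of the testis, at 933 and Cyt-c-p, the other cytochrome c gene, at 558, followed by blw (alpha subunit of ATP synthase) at 317, levy (complex IV) at 168 and cype (complex IV) at 165. The Rieske protein gene RFeSP, Cyt-c1, ox and sun were not bound.

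Of 13 assembly factors found in the annotation, 5 were bound, with CIA30, for complex I, at 1802 and Ttc19, for complex III, at 301 the strongest. Of 11 genes of the tricarboxylic acid cycle, 6 were bound, with Fum1 at 971, through the summit it shares with ND-ASHI, and Idh3g at 860 the strongest. Among 7 regulators of nuclear respiratory genes only ERR, the estrogen-related receptor, was bound, at 403. Of 5 carriers and channels for ATP and phosphate, sesB and porin among them, 0 were bound in the IDR list, although the 6633 strongest regions reached sesB in 2 replicates and Ant2 in 1. These lists are small, and each count stands beside the same 25.2% of all protein-coding genes.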

How the data were processed

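ChIP-seq peak lists of 3 biological replicates, so named in the labels, were used in narrowPeak form on dm6. The signal of each peak is the value the authors deposited, and its unit, aligner, caller and IDR threshold were not given in the sources used here. Snoo is named in the labels as the antibody's target, and their free text names an anti-GFP antibody. The control alignment was not analysed here, and read depth is unknown. The IDR list was the 6633 strongest of 30000 pooled candidates.

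Starts came from the Ensembl annotation of BDGP6, sequence from RefSeq Release 6. Summits within 1000 bp of a start marked a gene as bound, and summits within 150 bp of each other were the same. Shares carry exact Clopper-Pearson intervals at 95%. No test was made, since there is 1 group. Scripts used python 3.11.15, numpy 2.4.6, pandas 2.3.3, scipy 1.17.1 and matplotlib 3.10.9, and were tested on simulated data.

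Every bound main gene is named with its signal, the 3 strongest of each complex and each bound duplicate in full, and every unbound main gene with its distance. From the lists of other respiratory genes the 2 strongest bound were to be named, and further genes named there were chosen after their values were seen. Genes and lists were chosen with earlier results of these data known. The pairing of duplicates, the split of complex I, divergent neighbours and mitochondrial ribosomal protein genes were added after the data had been seen. So was the joint count of TTACATAA and TTACGTAA.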

Additional observations from a re-analysis of the deposited data

How the results depend on the processing

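With 28 bound genes in all and 27 main genes as reported, a window of 5000 bp gave 49 and 43, the 3317 strongest peaks 10 and 9, and peaks found in all 3 replicates 17 and 16. Asking for overlap of the peak with a start gave 18 genes in all. The duplicate count of 1 became 0 at 500 bp and under overlap, 2 at 2000 bp and 6 at 5000 bp. Complex I, at 10, had 21 at 5000 bp and 6 both with the strongest peaks and under overlap. Complex II, at 4, had 1 with the strongest peaks and with peaks in all 3 replicates, and 2 under nearest start only and under overlap. Complex III, at 1, had 0 at 500 bp, with the strongest peaks, with peaks in all 3 replicates and under overlap, 2 at 2000 bp and 4 at 5000 bp. Complex IV, at 5, had 0 with the strongest peaks and 3 under nearest start only. Complex V, at 7, had 2 with the strongest peaks and 3 with peaks in all 3 replicates. Leaving out each replicate gave 18 to 19 genes in all, 17 to 18 main genes, 1 duplicate, 8 to 9 in complex I, 0 to 1 in complex II, 0 in complex III, 4 to 5 in complex IV and 3 to 5 in complex V. Fewer peaks enter these stricter sets by construction. The share of main genes bound stayed above that of all genes in every one of these alternatives except the strongest peaks (14.3 against 14.6%). For the 88 genes the shares were 55.7% at 5000 bp, 11.4% with the strongest peaks and 19.3% with peaks in all 3 replicates. All protein-coding genes stood at 45.2, 14.6 and 16.1% in that order. Without replicates 3, 5 and 6 in turn the 88 genes stood at 20.5, 20.5 and 21.6%, against 19.7, 18.1 and 19.1%. The shares of all genes were 21.9% at 500 bp, 30.7% at 2000 bp, 19% under nearest start only and 14.3% under overlap. Of the motif counts, 19 stayed within 1.5 times under another window or start and 11 did not, all of them of motifs at few main genes: CACGTG and GCATGC at 0 of 63 within 100 bp on each side, GTCTAG at 1, GAGAGA at 4, TTACGTAA at 2 and TTACATAA at 6, among others. No paired analysis was possible because there is only 1 group of samples. With depth unknown, a gene without a peak is not shown to be unbound.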
